A study of Homo sapiens with 2 samples.

Results

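The genes described here are those of the long arm of chromosome 4, compared between parental BEAS-2B, an immortalised human bronchial epithelial line, and the same line made to overexpress TRPV3 (TRPV3-OE). TRPV3 is a cation channel that lets calcium into cells. Members were selected on position and on counts: a first chromosome value of 4, a lowest start at or above 51000000 (GRCh38), and at least 20 reads summed over both libraries. Of 1801 genes annotated on the arm, 358 met this rule, 250 had 1 to 19 counts and 1193 had none, against 13931 genes that met the count minimum in the whole series. The arm was proposed with its ratios already known, so all ratios below are a description and carry no test. Of the members, 318 are protein-coding, 11 antisense, 10 processed pseudogenes and 8 long intergenic RNAs.

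Each group had 1 library. Both were of untreated cells kept in LHC-9 medium on coated plates until confluent. The parental (WT) cells were between passage 20 and 30 and the TRPV3-OE cells between passage 4 and 8, so passage and genotype cannot be told apart. How the TRPV3-OE line was made is not given in the sources used here. Gene counts totalled 17450658 in the parental and 17477953 in the TRPV3-OE library. The targeted gene, TRPV3, stood at 26 parental and 54077 TRPV3-OE counts. All 8 bronchial epithelial markers checked were present, with summed levels of 7640 and 7340 CPM (counts divided by scaled library size) in the parental and TRPV3-OE libraries. Of these, KRT5, KRT7, CDH1 and TP63 were lower in TRPV3-OE, and KRT8, KRT18, KRT19 and EPCAM were higher. The 4 leukocyte markers were at 0 in both. Of the 6 fibroblast markers COL3A1 and LUM were at 0 in both libraries, and the list summed to 24.4 and 16.3 CPM, nearly all of it COL1A1. The 4 endothelial markers summed to 16.7 and 3.26 CPM, mostly CDH5 (268 and 35 counts), with TEK at 0 in both. PECAM1 went the other way, with 14 and 23 counts. In bulk RNA, fewer cells of a type and less RNA per cell cannot be told apart.

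What the members share is position. Genes of an arm sit on the same DNA molecule, and neighbours can lie in the same chromatin domain or near the same regulatory elements, while each gene also has its own promoter. The arm holds gene clusters that arose by duplication, such as the CXC chemokines, which recruit neutrophils and lymphocytes, and the EGF-like ligands beside them. It also holds broadly used genes of the cell cycle, chromatin and protein synthesis. No DNA or chromatin measurement is used here.

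Members were lower in the TRPV3-OE library over most of the arm. Their median log2 ratio (TRPV3-OE over parental, each library scaled by TMM) was −0.63, a median level 0.644 times that of the parental library. The median was −0.01 over all 13931 genes with the same count minimum and −0.03 over the 157 genes of chromosome 4 that start below 51000000. In all, 297 of 358 members (83.0%) had a ratio below 0, against 51.2% of all genes. At least 2-fold lower, with the 95% counting interval wholly below 0, were 79 members (22.1%), beside 6.76% of all genes. At least 2-fold higher were 17 members (4.75%), beside 7.85% of all genes. Members took 1.67% of the parental counts (exact binomial interval 1.66 to 1.67) and 1.13% of the TRPV3-OE counts (1.12 to 1.13). With 1 library a group no difference has a replicate check. All intervals are exact, at 95%, and cover counting error only. Reads copied by PCR with no molecular tag are not separate molecules, so the intervals may be too narrow even for that error.

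The lower ratio did not begin at the start of the arm. Segmentation of the 515 chromosome 4 genes by absolute deviation from segment medians put the single best break between SULT1E1 (4:69810780-69860152, minus strand), an oestrogen sulfotransferase gene, and UTP3 (4:70688479 at its start), a gene for processing of ribosomal RNA. The distance from the end of SULT1E1 to the start of UTP3 is 0.828 Mb. The same break was found when the arm alone was segmented. Before it, the 33 proximal members had a median log2 ratio of −0.06, 18 of them below 0, with 0 at least 2-fold lower and 3 at least 2-fold higher. After it, the 325 distal members had a median of −0.68, with 279 (85.8%) below 0, 79 at least 2-fold lower and 14 at least 2-fold higher. All 79 of the lower members were therefore distal. Because the break was placed by these ratios, the difference between its sides is part of how the sides were defined.

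**Figure D1:**
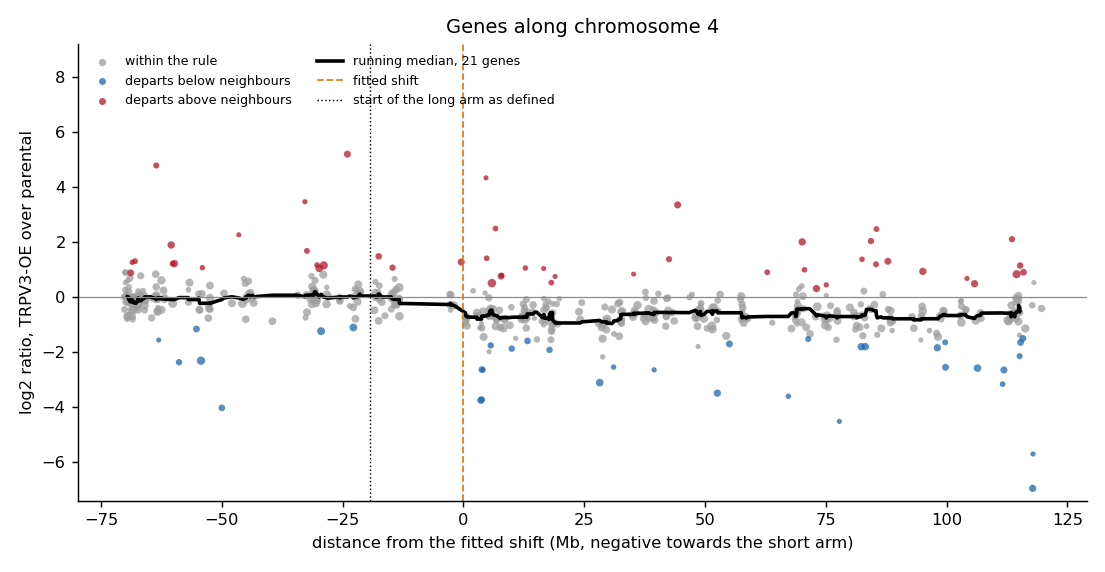
Each point is a chromosome 4 gene with at least 20 summed counts, by distance in Mb from the fitted shift (x) and log2 ratio of TRPV3-OE over parental (y), with larger points for more counts and a running median of 21 genes as the black line. The running median lies near 0 left of the shift and stays between −0.96 and −0.30 in the windows wholly to its right, while coloured points stand at least 1 log2 unit from their neighbours.

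The genes beside the break show the step one by one. Apart from SULT1E1 these were named after their values were seen. The 10 members before it had ratios from −0.69 to 1.28 with a median of −0.07. Of these, POLR2B, a subunit of RNA polymerase II, had 3843 parental and 5100 TRPV3-OE counts (log2 ratio 0.35, 0.29 to 0.41). REST, a repressor of neuronal genes, had 1137 and 1134 counts. CENPC, a centromere protein gene, had 282 and 315. UBA6, a ubiquitin-activating enzyme gene, had 1838 and 1572, and YTHDC1, a reader of RNA methylation, 1775 and 1498. IGFBP7, a secreted binding protein gene, was the lowest of the 10 at 3578 and 2302 counts. SULT1E1 itself was higher in TRPV3-OE, with 115 and 290 counts (log2 ratio 1.28, 0.96 to 1.60).

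The 10 members after the break had ratios from −1.11 to 0.23 with a median of −0.72. UTP3 had 1204 and 755 counts (log2 ratio −0.73, −0.86 to −0.60). The other genes after the break given here were also named after their values were seen. RUFY3 followed with 281 and 152 counts, GRSF1, an RNA-binding protein gene, with 3454 and 2066, MOB1B, of the Hippo pathway, with 837 and 529, and DCK, deoxycytidine kinase, with 828 and 416. The first 5 genes after the break thus lay between −0.72 and −1.05. ADAMTS3, with 27 and 33 counts, was the only one of these 10 above 0. Gene density bears on how finely the break can be placed, since the bin from 60 to 70 Mb held 6 members and the next held 43.

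From the break to the end of the arm the ratio stayed at about the same level. In bins of 10 Mb the median log2 ratio was −0.06 from 50 to 60 Mb (27 members) and −0.10 from 60 to 70 Mb. It was −0.73 from 70 to 80 Mb and −0.72 from 80 to 90 Mb (46 members). The lowest bin lay from 90 to 100 Mb at −0.90, where all 15 members were below 0. Medians in the remaining bins out to 190 Mb lay between −0.51 (130 to 140 Mb, 15 members) and −0.79 (160 to 170 Mb, 19 members). The 5 bins of the chromosome before 50 Mb had medians between −0.20 and 0.07. A running median over 21 genes reached its lowest value, −0.96, around PPP3CA, a catalytic subunit of calcineurin, and its highest distal value, −0.30, around SNX25, a sorting nexin gene near the end of the arm. Across distal members the ratio had a Spearman correlation of 0.04 with position, as a description over genes that share the same pair of libraries.

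A second break added little. Fitting 1 break lowered the summed absolute deviation on chromosome 4 from 345.25 to 301.58. A second, between BDH2 and CENPE, lowered it only to 300.31, separating 116 genes at a median of −0.76 from 209 at −0.63. The last member, FRG1, had 340 and 266 counts (log2 ratio −0.41, −0.65 to −0.17), and the first, DCUN1D4, had 1084 and 811 (−0.47, −0.61 to −0.34).

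**Figure D2:**
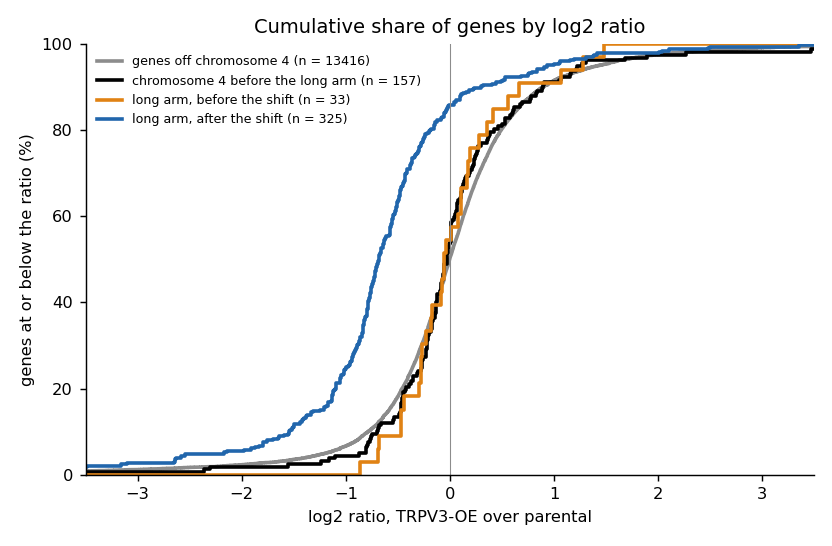
The cumulative share of genes (y, %) is drawn against the log2 ratio of TRPV3-OE over parental (x) for genes off chromosome 4, chromosome 4 before the long arm, and the arm before and after the shift. The curve of the 325 distal members is displaced to the left along most of its height, and the curve of the 33 proximal members follows those of the short arm and of the other chromosomes.

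Distal members with many counts lay close together. With at least 2000 summed counts, 52 of 54 were below 0, with a median of −0.73 and an interquartile range of 0.41. With 500 to 1999 counts, 120 of 128 were below 0, with a median of −0.70 and the same interquartile range. The rest of chromosome 4 had 40 of 58 genes below 0 in the highest count class (median −0.15) and 36 of 67 in the next (median −0.03). Its interquartile ranges in these classes were 0.35 and 0.513, and those of all genes 0.528 and 0.645. A narrow spread at high counts was thus not particular to distal members. With 20 to 99 counts the distal median was −0.27 with an interquartile range of 1.88, and there the median over all genes was 0.19, so shallow genes of the series as a whole were shifted upwards. The pooled counts of all distal members, 254282 and 162400, gave a log2 ratio of −0.70 (−0.71 to −0.69). Members did vary around that level by more than these intervals cover. The intervals of 134 of 325 distal members (41.2%) held the distal median, and 208 members (64.0%) lay within 0.5 of it.

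**Figure D3:**
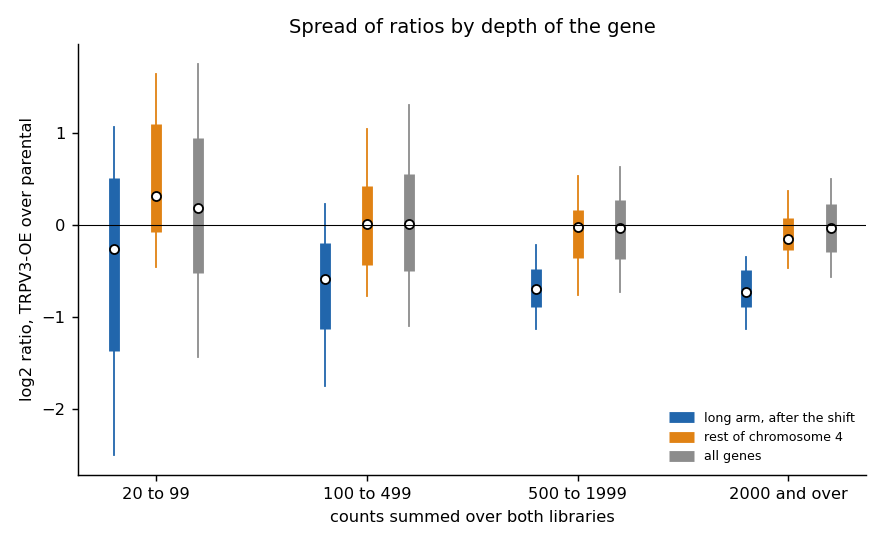
White points are medians, thick bars the quartiles and thin lines the 10th and 90th percentiles of the log2 ratio of TRPV3-OE over parental (y), by counts summed over both libraries (x), for the arm after the shift, the rest of chromosome 4 and all genes. The distal medians of −0.70 and −0.73 in the classes above 500 counts lie below the lower quartiles of the other 2 sets.

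The level was similar across strand and exon length and differed by biotype, none of which the rule had used. Distal members on the plus strand had a median of −0.67 (n = 165) and those on the minus strand −0.69 (n = 160). The shortest, middle and longest members by exon length had medians of −0.72, −0.67 and −0.68. Protein-coding members had a median of −0.71 (n = 290), and the 35 of other biotypes, most of them shallow, −0.25.

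Other stretches of the genome reached similar levels, so a low ratio was not particular to the arm. In consecutive windows of 50 genes the 6 distal windows had medians from −0.77 to −0.60. Among 257 such windows on other chromosomes, 10 were at or below the highest of these, and the lowest was −0.83 on the X chromosome. Windows 1 to 5 of chromosome 11, in order of position, had medians from −0.738 to −0.564, and windows 6 to 15 from −0.215 to 0.009. On X, windows 1 to 4 had medians from −0.829 to −0.551, and windows 5 to 8 from −0.32 to 0.191. On chromosome 6, windows 1 to 4 had medians from −0.806 to −0.485, and windows 5 to 14 from −0.301 to 0.329. The remaining windows among the 10 were window 9 of chromosome 14 (−0.657) and window 1 of chromosome 16 (−0.667). As whole chromosomes, 4 had a median of −0.44 (515 genes) and 16 a median of −0.32 (626 genes). The median was −0.25 on X (448 genes) and −0.22 on 11 (759 genes).

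The most abundant members by counts illustrate the step. H2AZ1, a histone H2A variant gene, had 10594 parental and 6340 TRPV3-OE counts (log2 ratio −0.80, −0.84 to −0.75). ANXA5, the phosphatidylserine-binding annexin A5, had 9435 and 4742 counts (−1.05). HNRNPD, a regulator of messenger RNA decay, had 9120 and 5494 counts (−0.79), and CCNI, an atypical cyclin, 7379 and 4590 (−0.74). These 4 are distal. PAICS, an enzyme gene of purine synthesis and the only proximal member of these 5, had 8937 and 8250 counts (−0.17, −0.22 to −0.13). Without these 5 genes the share of counts on the arm in the TRPV3-OE library was 0.682 times that in the parental library, against 0.676 times with them.

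Genes that departed from their neighbours were found by subtracting from each log2 ratio the median of the 10 members before and the 10 after. A member departed if this residual was at least 1 in size and its counting interval lay wholly on that side of 0. For members within 10 genes of the break, SULT1E1 and UTP3 among them, the neighbours came from both of its sides. By this rule 29 members (8.10%) lay below their neighbours, beside 5.43% of genes over all chromosomes, and 33 (9.22%) lay above, beside 7.40%. The remaining 296 members did not meet the rule, which does not show that they matched their neighbours. AREG, for instance, missed it at a residual of −0.76 (−0.90 to −0.62), and CDKL2, chosen after its values were seen, at −1.40 (−3.18 to 0.07). All 29 members below were also at least 2-fold lower, so 50 of the 79 members at least 2-fold lower had a ratio within the rule for their neighbourhood. All 17 members at least 2-fold higher departed above. That the 29 were 2-fold lower and the 17 departed follows from the rules, since their neighbours all had medians below 0. Departing members had fewer counts, with median summed counts of 192 below and 100 above, against 843 in the others. Among 203 members with at least 500 counts, 6 departed below and 6 above.

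The CXC chemokine list held 3 members that departed below their neighbours and 0 above. They are small secreted attractants. CXCL1 had 439 parental and 34 TRPV3-OE counts (25.6 and 1.91 CPM, log2 ratio −3.75, −4.30 to −3.24), 2.98 below its neighbours on the log2 scale. CXCL3 had 178 and 14 counts (log2 ratio −3.73, −4.63 to −2.94), and CXCL2 had 209 and 35 (−2.63, −3.19 to −2.11). These 3 genes encode near-identical ligands of the receptor CXCR2 and lay far below their neighbours. CXCL8, which encodes interleukin 8, had 54 and 26 counts (−1.11, −1.85 to −0.41), and CXCL5 had 13 and 7 (−0.95, −2.52 to 0.48). With a prior count of 5, CXCL8 stood at −0.98 and was no longer 2-fold lower. Neither departed, but their residuals had intervals of −1.08 to 0.35 and −1.76 to 1.24, so at this depth a departure of 1 could not be told from none. Of 13 CXC genes on the arm these 5 were members, and 4 of the 5 were at least 2-fold lower, beside 24.3% of distal members and 6.76% of all genes. The same shares stand behind the counts of the lists that follow, along with 8.92% of distal members departing below and 9.23% above. These shares are over all depths, and departures were rarer among deep members. Among those under the minimum, CXCL11 had 17 and 1 counts, CXCL10 had 5 and 1, CXCL9 had 5 and 0, and CXCL6 had 2 and 3. Reads that align to several genes are not in the counts, so values of CXCL1, CXCL2 and CXCL3 are uncertain.

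The promoters of 4 of these genes are shown because the chemokines share a start-proximal motif and yet differ in how far they lay from their neighbours. Each runs from 250 bases before to 50 after the start of the RNA, 5′ to 3′ on the gene's strand, from RefSeq on GRCh38.p14, and capitals mark the 9-letter NF-kappaB type motif GGAATTTCC. Their positions are 4:73869143-73869442 (plus) for CXCL1, 4:74099146-74099445 (minus) for CXCL2, 4:74038640-74038939 (minus) for CXCL3 and 4:73740319-73740618 (plus) for CXCL8.
CXCL1: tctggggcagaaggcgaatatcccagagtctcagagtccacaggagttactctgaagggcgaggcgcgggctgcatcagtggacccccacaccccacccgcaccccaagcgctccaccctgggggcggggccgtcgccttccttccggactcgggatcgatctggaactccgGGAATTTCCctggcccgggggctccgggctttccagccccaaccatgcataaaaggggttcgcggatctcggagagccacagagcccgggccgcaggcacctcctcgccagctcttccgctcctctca
CXCL2: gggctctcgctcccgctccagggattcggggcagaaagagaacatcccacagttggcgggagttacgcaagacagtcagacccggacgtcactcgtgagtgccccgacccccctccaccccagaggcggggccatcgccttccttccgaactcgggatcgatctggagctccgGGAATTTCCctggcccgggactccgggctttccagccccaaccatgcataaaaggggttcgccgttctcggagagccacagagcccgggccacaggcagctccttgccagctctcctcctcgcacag
CXCL3: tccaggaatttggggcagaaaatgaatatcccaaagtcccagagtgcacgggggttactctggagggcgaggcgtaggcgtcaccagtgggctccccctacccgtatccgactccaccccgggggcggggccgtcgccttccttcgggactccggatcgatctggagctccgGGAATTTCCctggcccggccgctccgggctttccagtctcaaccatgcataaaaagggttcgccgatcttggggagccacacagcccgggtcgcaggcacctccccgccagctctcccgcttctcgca
CXCL8: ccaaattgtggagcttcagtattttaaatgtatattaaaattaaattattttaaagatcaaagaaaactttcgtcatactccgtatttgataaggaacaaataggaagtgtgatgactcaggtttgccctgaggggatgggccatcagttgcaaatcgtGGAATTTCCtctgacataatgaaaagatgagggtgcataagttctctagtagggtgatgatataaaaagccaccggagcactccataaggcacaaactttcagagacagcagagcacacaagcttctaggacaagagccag

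The motif begins 78 bases before the start in CXCL1 and CXCL3, 77 in CXCL2, 91 in CXCL8 and 90 in CXCL5. Read on both strands, it occurs in 8 of the 12 CXC genes with a promoter in the table and in 0.461% of all 35116 promoters of the same length. Promoters were found for 294 members, and 7 of these held the motif, namely the 5 chemokines, NFKB1 and UTP3. NFKB1 encodes a subunit of NF-kappaB itself and had 1310 and 508 counts (log2 ratio −1.42, −1.57 to −1.27), which is 0.63 below its neighbours. UTP3 was 0.21 below neighbours that came from both sides of the break (median −0.52). A second searched motif, TATAAA, lay in 11.5% of all promoters and, among the 4 shown, in CXCL8, where it begins 31 bases before the start. The motifs do not overlap where both occur there. A match of letters is a description and not a site of binding.

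**Figure D4:**
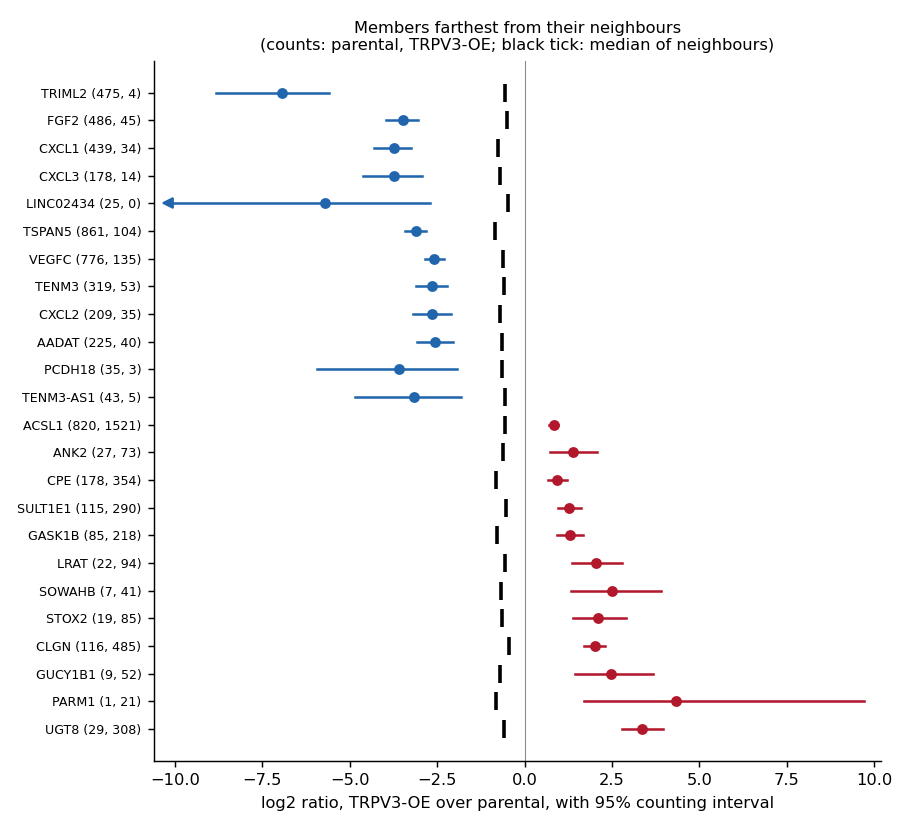
Points are log2 ratios of TRPV3-OE over parental with 95% counting intervals (x) for the 12 members farthest below and the 12 farthest above their neighbours (y, with parental and TRPV3-OE counts), and black ticks are the medians of the neighbours. The ticks lie between −0.84 and −0.43, and an arrow marks an interval with no lower bound. The tick of SULT1E1, at −0.52, comes from genes on both sides of the shift.

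Below their neighbours stood TRIML2, a tripartite-motif-like gene near the end of the arm (4:188091273-188109603), which had 475 parental and 4 TRPV3-OE counts (27.7 and 0.225 CPM). Its log2 ratio of −6.95 (−8.83 to −5.58) was the lowest of all members. The long intergenic RNA LINC02434, the next member after it, had 25 and 0 counts, at least 8.66-fold lower against a floor of 3 counts in the TRPV3-OE library. Its log2 interval, which also takes in the counting error of the parental library, reached up to −2.71. TSPAN5, a tetraspanin, had 861 and 104 counts (−3.11, −3.41 to −2.81). TENM3, a teneurin adhesion protein gene, had 319 and 53 counts, and TENM3-AS1 on the other strand beside it had 43 and 5. AADAT, an enzyme gene of tryptophan breakdown in the kynurenine pathway, had 225 and 40 counts, and the protocadherin gene PCDH18 had 35 and 3.

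Growth factor genes were among those farthest below. FGF2, basic fibroblast growth factor (4:122826708 at its start), had 486 parental and 45 TRPV3-OE counts (28.4 and 2.53 CPM, log2 ratio −3.49, −3.96 to −3.05). VEGFC, the lymphatic growth factor, had 776 and 135 counts (−2.58, −2.85 to −2.31). PDGFC, a platelet-derived growth factor gene, had 1187 and 563 counts (−1.13), 0.53 below its neighbours and within the rule. SMAD1, a transducer of BMP signals, had 381 and 222 counts (−0.84), and SPRY1, a feedback inhibitor of FGF signalling, had 476 and 530 (0.10, −0.08 to 0.28). In the list of FGF, VEGF, BMP, WNT and hedgehog genes, 4 of 8 members were at least 2-fold lower, 3 departed below and 0 above, with a median of −0.98 beside −0.68 over distal members, of which 24.3% were at least 2-fold lower and 8.92% departed below.

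The EGF family ligands listed here bind EGFR, and some of them also bind ERBB4. AREG, amphiregulin, had 1526 and 583 counts (89.1 and 32.7 CPM, log2 ratio −1.44, −1.59 to −1.31), 0.76 below its neighbours. EREG, epiregulin, had 923 and 672 (−0.51, −0.66 to −0.37), 0.30 above its neighbours. EPGN, epigen, had 24 and 4 counts and departed below, and BTC, betacellulin, had 13 and 15. Of these 4 members 2 were at least 2-fold lower. EGF itself had 1 and 3 counts and was no member. Among receptor tyrosine kinase genes of the arm KIT and KDR had no counts, PDGFRA had 0 and 1, and EPHA5 had 2 and 2.

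Innate immune and interferon-response genes had a median log2 ratio of −1.37. Of 10 members 7 were at least 2-fold lower and none was higher, beside 24.3% lower among distal members, and 3 departed below and 1 above. Besides NFKB1, DDX60L, a helicase-like gene of the interferon response, had 399 parental and 116 TRPV3-OE counts (−1.84, −2.15 to −1.54) and departed below. TIFA, an adaptor in NF-kappaB activation, had 541 and 344 counts (−0.71), and IRF2, an interferon regulatory factor, 363 and 266 (−0.50). Neither departed. The next genes were named after their values were seen. TLR3, a sensor of double-stranded RNA, had 193 and 71 counts and IL15, a cytokine gene, 58 and 21, and both departed below. HERC5, a ligase of the interferon response, had 22 and 33 counts and departed above, although its interval of −0.29 to 1.38 held 0.

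Members above their neighbours were led by UGT8, the ceramide galactosyltransferase of myelin lipid synthesis (4:114598455-114678224), with 29 parental and 308 TRPV3-OE counts (1.69 and 17.3 CPM). Its log2 ratio was 3.35 (2.80 to 3.96), with a neighbourhood at −0.59. PARM1, a mucin-like membrane protein gene, had 1 and 21 counts (4.34, 1.70 to 9.71). CLGN, calmegin, a chaperone of the endoplasmic reticulum, had 116 and 485 counts (2.01, 1.71 to 2.31). GUCY1B1, the beta subunit of the nitric oxide receptor guanylate cyclase, had 9 and 52 counts. Its partner subunit GUCY1A1, which lies beside it and was named after its values were seen, had 21 and 50. LRAT, which makes retinyl esters for vitamin A storage, had 22 and 94 counts.

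Further genes above were STOX2 (19 and 85 counts), SOWAHB (7 and 41), GASK1B (85 and 218) and ANK2, an ankyrin (27 and 73). CPE, a carboxypeptidase that processes prohormones, had 178 and 354 counts (log2 ratio 0.94, 0.67 to 1.20). ACSL1, which activates long-chain fatty acids, had 820 and 1521 counts (0.84, 0.71 to 0.96) and was the deepest of the 12. All 33 members above their neighbours had ratios above 0, which the rule required, because the lowest median of their neighbours was −0.942. In 26 of the 33 the interval lay wholly above 0. Of the 46 distal members with a ratio above 0, 23 had intervals wholly above 0.

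Departing members stood side by side in 9 of 357 adjacent pairs of members in the same direction and in 3 pairs in opposite directions. Such pairs were not counted on other chromosomes, so these numbers do not show that neighbours departed together. The pairs in the same direction included CXCL3 with CXCL2, TENM3-AS1 with TENM3 and TRIML2 with LINC02434 below, and GUCY1A1 with GUCY1B1 above. Also counted above were HPGD with WDR17, which lie 1540 kb apart, and FRAS1 with SERBP1P5, which overlap, as do TENM3-AS1 and TENM3.

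**Figure D5:**
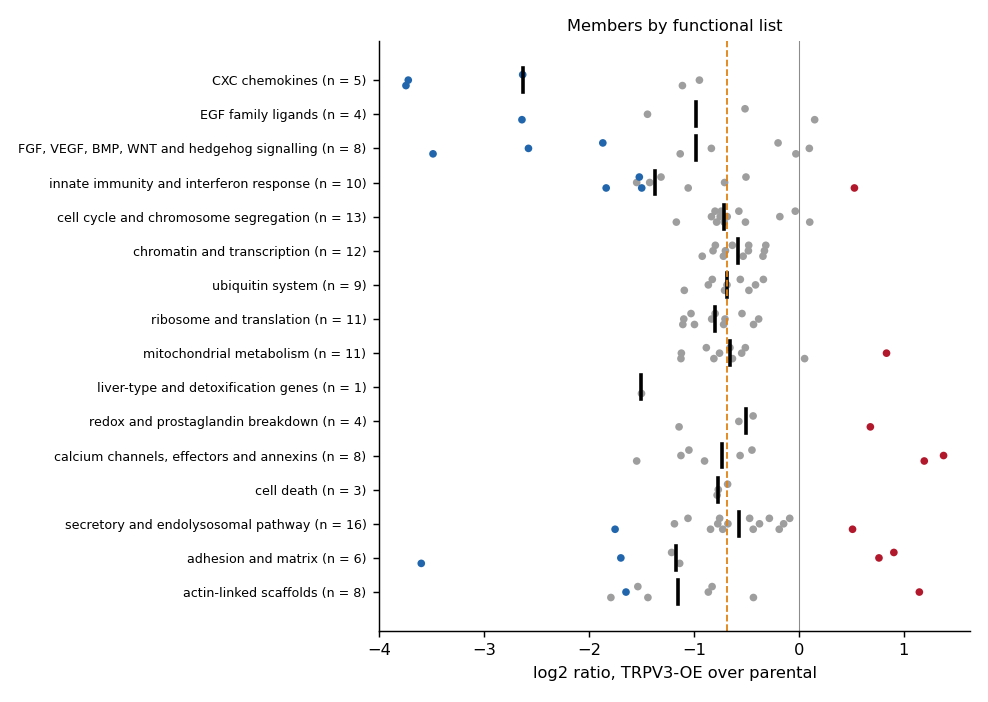
Each point is a member of a functional list (y) by its log2 ratio of TRPV3-OE over parental (x), black bars are list medians and the dashed line is the median of distal members, with blue and red for members below and above their neighbours. Cell cycle, chromatin, ubiquitin, translation and cell death genes gather around the dashed line, and the chemokines and the adhesion genes are spread widely. These lists also differ in depth, as most of the former genes had at least 500 counts and most of the latter fewer.

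None of the cell cycle genes departed from its neighbours, but the shallowest, MND1, still had 314 parental and 194 TRPV3-OE counts. Members with at least 500 counts seldom departed, 6 below and 6 above among 203. So 0 departures here cannot be read as a trait of the function of these genes. Of 13 members 1 was at least 2-fold lower and none was higher (median −0.71). The lower one was CCNA2, cyclin A2, with 3447 parental and 1594 TRPV3-OE counts (201 and 89.5 CPM, log2 ratio −1.17, −1.25 to −1.08). MAD2L1, of the spindle checkpoint, had 2275 and 1373 counts (−0.79) and CENPE, a kinetochore motor, had 2271 and 1658 (−0.51). CENPC, the proximal member of the list, stood at 0.10.

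Chromatin and transcription genes had 0 of 12 members at least 2-fold lower, 0 higher and 0 departing, with a median of −0.58. Most members of this list and of the ubiquitin and translation lists were also deep, so their 0 departing members carry the same limit. Besides H2AZ1, HMGB2, a DNA-bending protein gene, had 3744 and 2054 counts (−0.92). SMARCA5, a remodelling ATPase, had 3956 and 3243 counts (−0.34), and SETD7, a lysine methyltransferase, had 1734 and 1448 (−0.32). In the ubiquitin system 1 of 9 members was at least 2-fold lower and 0 departed (median −0.69). Its deepest member was UBE2D3, a conjugating enzyme, with 5315 and 3037 counts (−0.86). COPS4, of the signalosome, had 1083 and 635 (−0.83), USP38 794 and 505 (−0.71) and KLHL2 646 and 531 (−0.34).

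Ribosome and translation genes had 3 of 11 members at least 2-fold lower, close to the 24.3% of distal members, with 0 higher, 0 departing and a median of −0.80. ABCE1, the ribosome recycling factor, had 4884 parental and 2918 TRPV3-OE counts (−0.80, −0.87 to −0.73). RPL34, a ribosomal protein gene with pseudogenes, had 3601 and 2774 counts (−0.43) and is uncertain for that reason. METAP1, which removes initiator methionines, had 2366 and 1233 counts (−0.996), and GAR1, of ribosomal RNA pseudouridylation, 914 and 534 (−0.83). Genes of mitochondrial metabolism had 2 of 11 members at least 2-fold lower, with a median of −0.66 and ACSL1 as the only one departing. HADH, of fatty acid oxidation, had 986 and 556 counts (−0.88) and NDUFC1, of respiratory complex I, had 962 and 702 (−0.51). SLC25A4, the heart-type ADP/ATP carrier, had 578 and 624 (0.05, −0.11 to 0.22).

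TRPV3 passes calcium, and genes of calcium channels, calcium effectors and annexins were taken as a list. Its median was −0.73. Of 8 members 3 were at least 2-fold lower, 2 were higher and departed above, and the others lay within these limits. ANXA5 and ANXA3 (3771 and 1798 counts, −1.13, −1.21 to −1.04), calcium-dependent membrane-binding proteins, were at least 2-fold lower and within the rule for their neighbours. Scaled by total counts, ANXA5 stood at −0.995, and by the upper quartile at −0.991, and was no longer 2-fold lower. PPP3CA had 1657 and 1263 counts (−0.45), 0.51 above its neighbours, and PKD2, polycystin 2, a calcium-permeable channel of the same superfamily as TRPV3, had 560 and 312 (−0.90). The 2 higher genes were ANK2, an ankyrin, and GUCY1A1, a guanylate cyclase subunit, and neither is itself a calcium channel or an annexin.

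Secretory and endolysosomal genes had a median of −0.57, and 3 of 16 members were at least 2-fold lower. SCARB2, a lysosomal membrane protein, had 2062 parental and 3055 TRPV3-OE counts (120 and 172 CPM, log2 ratio 0.51, 0.43 to 0.59) in a neighbourhood at −0.56, and departed above. SPCS3, of the signal peptidase, had 4778 and 2769 counts (−0.84). SEC31A, of COPII vesicles, had 2362 and 1484 counts (−0.73) and USO1, a vesicle tether, had 2009 and 1508 (−0.47).

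Adhesion and matrix genes were spread on both sides, with 4 of 6 members at least 2-fold lower, 2 departing below and 2 above (median −1.18). FAT1, an atypical cadherin, had 2657 and 1256 counts (−1.14, −1.24 to −1.04) and FAT4 had 231 and 74 (−1.70, −2.10 to −1.31). FRAS1, a basement membrane protein gene, had 102 and 180 counts (0.76, 0.41 to 1.13) and PCDH10, a protocadherin, 19 and 37. Actin-linked scaffolds had 4 of 8 members at least 2-fold lower and 1 higher (median −1.15). PALLD, palladin, had 1999 and 766 counts (−1.44, −1.56 to −1.32), PDLIM5 had 1906 and 1116 (−0.83), SHROOM3 had 1063 and 818 (−0.43) and ARHGAP10 had 774 and 442 (−0.86).

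Of the cell death list, PAQR3 had 781 and 473 counts (−0.78) and CASP6, a caspase, 316 and 205 (−0.68). Neither was at least 2-fold lower. In the redox and prostaglandin list SLC7A11, the cystine transporter, had 818 and 385 counts (−1.14), 0.57 below its neighbours. GSTCD had 661 and 462 counts (−0.57). SRD5A3, a proximal member, had 168 and 129 (−0.44), and HPGD, which degrades prostaglandins, had 9 and 15 and departed above, with an interval of −0.61 to 2.05. Of 22 liver-type and detoxification genes on the arm, 18 had no counts and only ADH5, the alcohol dehydrogenase that also acts on formaldehyde conjugated to glutathione, was a member. It had 2411 and 881 counts (141 and 49.5 CPM, −1.51, −1.62 to −1.40), 0.64 below its neighbours.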

How the data were processed

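RNA sequencing gave 1 library of parental BEAS-2B and 1 of TRPV3-OE cells, grouped by the genotype label. The authors deposited raw read counts per gene from featureCounts 1.5.0-p3, set to the opposite strand, with Ensembl 87 models (GRCh38.p7, per the file headers). Reads aligned to several places or lying over several genes are left out by default, and the headers carry no option that would add them. The submitters' processing notes also name STAR and DESeq2, with no version.

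Counts were scaled by TMM (factors 0.981 and 1.02, edgeR 4.0.16, R 4.3.3) and no model was fitted. Ratios carry Clopper-Pearson 95% intervals and a count of 0 was set to 0.5. Symbols came from a gene name table (357 of 358 members) and biotypes from GENCODE 29. Segments held at least 20 genes. The calculation was tested on simulated data. Tables were made in Python 3.11.15 (scipy 1.17.1, numpy 2.4.6, pandas 2.3.3) and figures in matplotlib 3.10.9.

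Named genes were the 12 departing members farthest on each side by the interval bound nearest to 0, up to 4 members of each of 17 lists by summed counts (all chemokines and EGF ligands), the 5 with most counts, and those beside the break or at the arm's ends. Some genes that this rule names are not reported here. Members and lists were chosen with earlier results of these data known. At the count minimum, CXCL5, EEF1A1P9 and ENSG00000272576 had 20 counts (log2 ratios −0.95, 0.84 and −0.06) and ENSG00000280219, just outside, had 19 (−0.52). Alternatives were other scalings (total counts, DESeq2 1.42.0, upper quartile), a prior count of 5, other count minimums, fold limits, neighbour numbers and segmentation settings, and protein-coding genes alone.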

Additional observations from a re-analysis of the deposited data

How the results depend on the processing

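The first gene after the break was UTP3 (position 70688479) in every setting run. These were 3 other scalings, minimums of 1, 100 and 500 counts, a prior count of 5 and protein-coding genes alone. Squared deviations, at least 10 genes a segment and 2 breaks (the first of them) gave the same gene. SULT1E1, with 405 summed counts, was not included at the minimum of 500, and the gene before the break was not compared between settings. The median log2 ratio of members (−0.63) lay between −0.68 (minimum of 500 counts) and −0.58 (upper quartile), except −0.51 with a minimum of 1 count. The distal median was −0.68 both with and, in a setting added after the data were seen, without departing members. Other scalings moved the median of all genes by at most 0.0582. Members at least 2-fold lower (79) became 35 with a minimum of 500 counts and 175 at 1.5-fold. Fewer genes qualify by construction: of 358 members, 291 remained with a minimum of 100 and 203 with 500. These 2 minimums lowered the following calls more steeply than the number of members. Members at least 2-fold higher (17) became 10 and 1, and departing members (62) became 35 and 11. All 35 and all 11 were among the 62, as were 57 of the 62 found with 5 neighbours a side and 56 of the 58 found with 25. The share of counts became 1.41% and 0.959% in the parental and TRPV3-OE libraries without the 5 deepest members. Of 340 values of 85 named genes, 329 stayed within their interval, 11 moved and 0 reversed. No paired analysis was possible because there is a single library for either genotype, and no replicate could be left out.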

Other observations

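Arm genes too shallow to be members were pooled on each side of the break. The 215 distal genes with 1 to 19 summed counts had 501 parental and 463 TRPV3-OE counts in all, a pooled log2 ratio of −0.17 (−0.36 to 0.01, counting error only). The 35 proximal ones had 80 and 121 counts (0.54, 0.12 to 0.97). The distal interval held 0, and the median of these distal genes was −0.06, the value that equal counts in both libraries give. Shallow genes of the series ran upwards, with a pooled log2 ratio of 0.14 over all genes with 20 to 99 counts. An interval that held 0 therefore does not show that the lower distal ratio was absent at this depth. The distal ratio lay below the proximal one and the pooled intervals did not overlap. The proximal ratio rests on few counts and lay above that of the pooled proximal members (−0.13).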
